A study of Mus musculus with 5 samples.

Results

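Ligands, a co-receptor, binding antagonists and an intracellular repressor of Nodal and activin signalling were examined in mouse embryos with and without Oct4. The members are 10 of the 49671 genes in the count table, picked by gene name. They are the ligand genes Nodal, Gdf3, Inhba and Inhbb, the co-receptor gene Cfc1, the antagonist genes Fst, Fstl3 and Lefty2, the follistatin-like gene Fstl1 and the repressor gene Skil. Because they were chosen from earlier results on the same contrast of genotypes, their differences between genotypes are given as a description and support no inference.

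Nodal and the activins are secreted dimers of the TGFβ superfamily that signal through activin receptors and phosphorylated Smad2 and Smad3. Nodal also needs an EGF-CFC co-receptor, Cripto (encoded by Tdgf1) or Cryptic (encoded by Cfc1), whereas activin does not. In the early mouse embryo Nodal from the epiblast patterns the overlying visceral endoderm (VE) and induces the primitive streak. Follistatin binds activin tightly and holds it away from its receptors, while the Lefty proteins and Cerberus block Nodal.

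RNA was sequenced by SmartSeq2, which copies polyadenylated transcripts along their length, from 2 SO+ and 3 SO− embryos of mixed strain background at the onset of gastrulation. SO+ embryos were Sox2Cre-/-; Oct4 fl/+, with no Cre and with a floxed next to an intact Oct4 allele, and SO− embryos were Sox2Cre+/-; Oct4 fl/-, with Cre and with a floxed next to a null allele. Every embryo thus carried a floxed allele. Each library came from 1 embryo, as epiblast with VE after the extra-embryonic ectoderm (ExE) was cut away, and the Sox2 promoter drives Cre mainly in the epiblast, so the VE in a sample was not the targeted tissue.

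Total counts were 27047148 to 27538119 in the SO+ pair against 1117566 to 4191498 in SO− embryos. Oct4 itself (Pou5f1) was at 920.2 and 435 CPM (counts of a gene per 1000000 counts of its library) in the SO+ pair against 27.8, 12.5 and 43.7 in SO− embryos 1, 2 and 3. The genotypes also differed in library index, with one second index in both SO+ libraries and another in all SO− libraries, and index and genotype cannot be told apart. The summed level of 6 epiblast markers was lower in SO− embryos (2121 to 3157 CPM against 4337 and 5065), with none of the 6 at 0 and with Utf1 and Dnmt3b called lower. Dnmt3b supplied most of this sum in every embryo (3983 and 3263 CPM in the SO+ pair, 1708, 1447 and 2286 CPM in SO− embryos), and at an unadjusted p under 0.05 edgeR had 3 of the 6 lower and 1, Fgf5, higher. Sox2 was at 7.48 and 7.88 CPM against 10.6, 9.84 and 12.9 CPM and was not called. The sum of 12 VE markers overlapped between genotypes (2985 to 4769 against 3124 and 3480.3 CPM), with none called by edgeR or DESeq2 (5 higher at an unadjusted p under 0.05) and none at 0. The part of these marker shifts in the values that follow was not tested, and in whole-tissue RNA fewer cells of a type and less RNA per cell cannot be told apart. ExE markers summed to 10.6 to 17.0 CPM in the 5 embryos, and decidual markers to 3.81 to 8.95 CPM with the decidual prolactin genes Prl8a2 and Prl3c1 at 0. Parietal endoderm markers summed to 291 to 403 CPM and blood markers to at most 0.259 CPM. Most of the parietal endoderm sum came from Sparc (174 to 232 CPM) and Lamb1 (102 to 149 CPM), while Thbd and Snai2 reached at most 1.45 and 0.477 CPM.

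Enough reads for the comparison were present for 7 of the 10 members, and Fstl3, Inhba and Inhbb were below the filter, which asked for 2.39 CPM in at least 2 embryos. At an adjusted p threshold of 0.05, 3 of the 7 were called, with Fst and Skil lower and Cfc1 higher in SO− embryos. Over all 12067 genes tested, 2.35% were called, 0.928% lower and 1.42% higher. Of the 7, the same 3 did not overlap between genotypes in CPM, which held for 29.5% of all genes tested. Nothing is read from these counts, since the members were selected on this contrast. The median log2 fold change, SO− over SO+, was -0.19 over the 7 members and 0.00 over all genes tested.

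**Figure D1:**
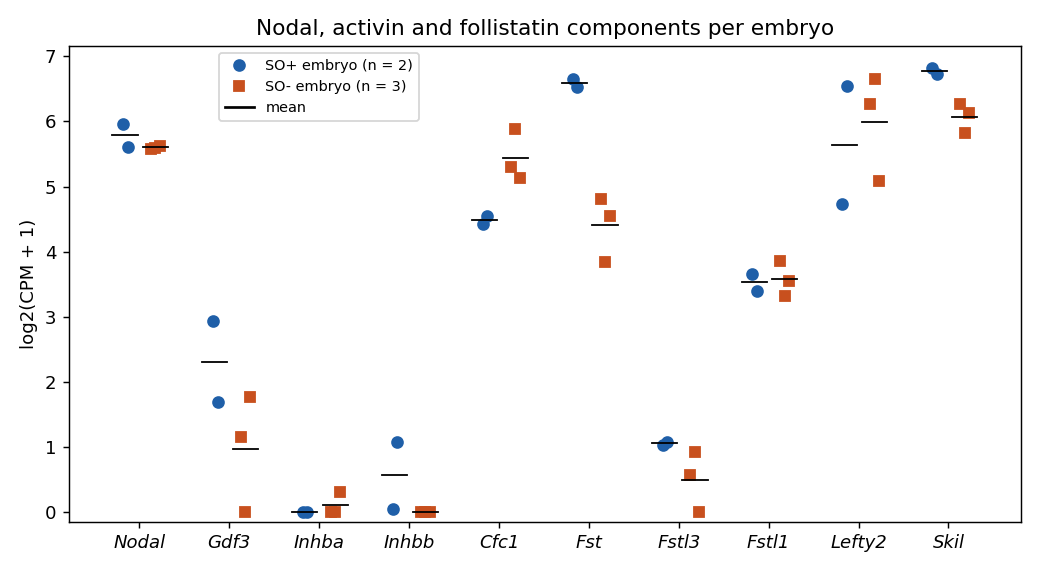
Level of each member as log2(CPM + 1) in each embryo, SO+ embryos as circles, SO− embryos as squares and the mean of these log values in each genotype as a line. Fst stood apart between genotypes by the widest margin, Cfc1 was higher and Skil lower in all SO− embryos, and Nodal was nearly level across the SO− embryos (46.9 to 48.4 CPM). Inhba and Inhbb lay at or near 0, apart from Inhbb in SO+ embryo 2 (1.11 CPM).

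Among the ligands, Nodal transcripts were present at similar levels in both genotypes, and the activin genes were almost unread in either. Nodal (ENSMUSG00000037171, GRCm38 chromosome 10, 61417972 to 61425338, plus strand, 3 exons) had 1694 and 1295 counts in SO+ embryos 1 and 2, and 194, 53 and 203 in SO− embryos 1, 2 and 3. In CPM this was 61.5 and 47.9 against 46.9, 47.4 and 48.4. The genotypes overlapped, because SO+ embryo 2 lay within the narrow SO− range and SO+ embryo 1 above it. The log2 fold change of Nodal was -0.19 ± 0.17 (SE, n = 2 SO+ and 3 SO−), and -0.01 without SO+ embryo 1.

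Gdf3 (ENSMUSG00000030117, chromosome 6, 122605403 to 122610087, minus strand) encodes a Nodal-related ligand that also depends on the EGF-CFC co-receptors. It had 183 and 60 counts in the SO+ pair against 5, 0 and 10 in SO− embryos, or 6.65 and 2.22 CPM against 1.21, 0 and 2.39 CPM. The ranges overlapped, with SO− embryo 3 above SO+ embryo 2. Gdf3 reached the filter in 1 embryo of each genotype. Its log2 fold change was -1.55 ± 0.74 (SE), it was not called, and without SO+ embryo 1 it no longer entered the comparison. Where no count was seen, in SO− embryo 2, the total read allows a level of up to 2.68 CPM (3 counts), which is above the value in SO+ embryo 2.

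Activin A is a dimer of the subunit encoded by Inhba (ENSMUSG00000041324, chromosome 13, 16011851 to 16031621, plus strand), and activin B of that encoded by Inhbb (ENSMUSG00000037035, chromosome 1, 119415465 to 119422248, minus strand). Inhba had no count in 4 embryos and 1 count in SO− embryo 3, which is 0.239 CPM. In the 54585267 counts of the SO+ pair, the Inhba count of 0 has an exact Poisson 95% interval of 0 to 0.0676 CPM. Inhbb had 1 and 30 counts in SO+ embryos 1 and 2 and none in the SO− embryos, so nearly all its reads came from a single library. Pooled over embryos, Inhbb stood at 0.568 CPM in SO+ (exact Poisson 95% interval 0.386 to 0.806, counting error only). In SO− embryos it was 0 CPM, with an interval of 0 to 0.391 CPM, so the intervals overlapped. The higher SO+ value rests on SO+ embryo 2, since SO+ embryo 1 had 0.0363 CPM. Activin transcripts were therefore too rare at this depth for a ratio of follistatin to activin in single embryos.

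On the length-corrected scale (FPKM, here CPM per kilobase of exon), Nodal made up nearly all of the sum of Nodal, Gdf3, Inhba and Inhbb. Its share was 91.4% and 95.1% in the SO+ pair, and 97.8% and 95.8% in SO− embryos 1 and 3, while SO− embryo 2 had no count of the other 3 genes. Gdf3 held most of the rest, at 8.54% and 3.81% in the SO+ pair against 0% to 4.08% in SO− embryos. Of 6 other ligand genes listed, Gdf1, Inhbe and Mstn had no count, and Inha and Gdf11 were not tested. The remaining ligand gene, the activin C subunit gene Inhbc, was at 1.82 and 2.29 CPM in the SO+ pair against 4.60, 2.68 and 4.77 CPM in SO− embryos (log2 fold change 1.05 ± 0.56 SE, adjusted p = 0.453, edgeR quasi-likelihood test).

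Follistatin was the member with the widest separation between genotypes. Fst (ENSMUSG00000021765, chromosome 13, 114452290 to 114458951, minus strand, 4589 exon bases) had 2757 and 2467 counts in SO+ embryos 1 and 2, and 112, 15 and 94 in SO− embryos 1, 2 and 3. This was 100.1 and 91.2 CPM in the SO+ pair against 27.1, 13.4 and 22.4 CPM in SO− embryos. The highest SO− embryo was thus far below the lowest SO+ embryo, and the lowest, SO− embryo 2, was also the most shallowly read. The log2 fold change was -2.08 ± 0.20 (SE), or 4.24-fold lower. Leaving out each embryo in turn gave -2.30 to -1.94, and Fst was called in all 5 of these fits. When SO+ counts were thinned to the average depth of SO− libraries it was -2.06, close to the value at full depth.

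Set against Nodal in the same embryo, Fst was at 0.743 and 0.870 of the Nodal FPKM in SO+ embryos, and at 0.264, 0.129 and 0.211 in SO− embryos. A ratio within a library does not depend on how libraries are scaled to each other. Its log2 averaged -0.31 in SO+ and -2.37 ± 0.53 (SD, n = 3) in SO− embryos, a difference of -2.06. The mean of Fst was 20.8 FPKM in SO+ and 4.57 FPKM in SO− embryos, while that of Nodal was 26.1 and 22.7 FPKM. Per length, Fst was thus a little below Nodal in each SO+ embryo and far below it in each SO− embryo.

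The gene nearest to Fst in pattern over the 5 embryos was Ndrg1, among 9304 tested genes whose mean log2 CPM was 3 or more. Likeness was the root-mean-square difference of the centred log2(CPM + 1) profiles, which was 0.162 for Ndrg1, a gene known for its response to stress. L1td1, an RNA-binding protein gene of pluripotent cells, followed at 0.237, then Rgl3, an exchange factor for Ral, at 0.258. Camkv, a kinase-like gene, and Nfasc, which encodes the adhesion protein neurofascin, were both at 0.286. Their log2 fold changes ran from -2.91 (Nfasc) to -1.84 (L1td1). These genes were picked for their likeness to Fst, and the 5 points of each profile share the depth of their libraries.

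Per length, both relatives of follistatin were less abundant than Fst in every embryo. Fstl3 (ENSMUSG00000020325, chromosome 10, 79777272 to 79782630, plus strand) encodes a secreted protein that binds activin as follistatin does. It had 29 and 30 counts in the SO+ pair against 2, 1 and 0 in SO− embryos. Pooled, this was 1.08 CPM in SO+ (exact Poisson 95% interval 0.823 to 1.39) and 0.318 CPM in SO− embryos (0.0655 to 0.928), from only 3 counts. Of its exon bases 1157 are shared with Prss57 on the opposite strand, and Prss57 had no count in any embryo. With the strand setting not given, this does not show that reads in the shared bases were counted for Fstl3. Fstl1 (ENSMUSG00000022816, chromosome 16, 37776873 to 37836514, plus strand), a more distant secreted relative, was at 11.6 and 9.54 CPM in the SO+ pair against 13.5, 8.95 and 10.7 CPM in SO− embryos. These ranges overlapped, and the log2 fold change of 0.12 ± 0.32 (SE) moved between -0.07 and 0.26 as embryos were left out.

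Lefty2 (ENSMUSG00000066652, chromosome 1, 180893108 to 180899103, plus strand) encodes a secreted Nodal antagonist that is itself induced by Nodal and is expressed in nascent mesoderm. Its neighbour Lefty1 is a near copy, with 1017 of 1107 coding bases identical (91.9%). A read inside a stretch that both genes share cannot be assigned to one of them. Over all exons of Lefty2, 3.86% of windows of 100 bases also occur in Lefty1, so most reads can be told apart. Lefty2 had 706 and 2492 counts in the SO+ pair against 313, 111 and 138 in SO− embryos, or 25.6 and 92.1 CPM against 75.7, 99.3 and 32.9 CPM. Both genotypes spanned a wide range, and the SO+ pair differed from each other nearly as much as any embryos did. The log2 fold change was 0.16 ± 0.46 (SE). It was -0.50 without SO+ embryo 1, -0.11 without SO− embryo 2 and 1.36, then called, without SO+ embryo 2. Lefty2 was highest in SO− embryo 2, whereas Mesp1, a nascent mesoderm marker, was highest in SO+ embryo 2 (63.3 CPM, against 20.9 to 27.8 CPM in the other 4). Over SO− embryos 1, 2 and 3 Mesp1 was nearly level (27.8, 27.7 and 27.0 CPM). The sum of 5 mesoderm markers other than Lefty2 was also highest in SO+ embryo 2 (105 against 50.8 to 83.0 CPM). None of the 5 was at 0 throughout, and Hand1 was called higher in SO− embryos. The part of mesoderm content in the Lefty2 values was not tested. Lefty1 was at 54.7 and 37.5 CPM in the SO+ pair against 53.9, 59.1 and 59.6 CPM in SO− embryos (log2 fold change 0.32 ± 0.19 SE, adjusted p = 0.494).

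Cerberus, encoded by Cer1, is an antagonist of Nodal made by the anterior VE and definitive endoderm. It was higher in SO− embryos, at 78.3 and 82.4 CPM in the SO+ pair against 139, 129 and 119 CPM in SO− embryos (log2 fold change 0.69 ± 0.13 SE, adjusted p = 0.0126). The call was kept in 2 of 5 fits with an embryo left out and lost without SO+ embryo 1, SO− embryo 1 or SO− embryo 2, where the adjusted p reached 0.174. Of the summed FPKM of 5 secreted antagonists (Fst, Fstl3, Lefty1, Lefty2 and Cer1), Fst made up 20.2% and 16.0% in the SO+ pair against 4.05%, 1.96% and 4.09% in SO− embryos. Cer1 made up 41.6% and 38.1% in the SO+ pair against 54.8%, 49.7% and 57.0% in SO− embryos. The sum itself was 108 and 124 FPKM in the SO+ pair against 146, 149 and 119.6 FPKM in SO− embryos, and these ranges overlapped. The membrane-bound pseudoreceptor gene Bambi was not called (log2 fold change 0.70 ± 0.25 SE, adjusted p = 0.202).

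**Figure D2:**
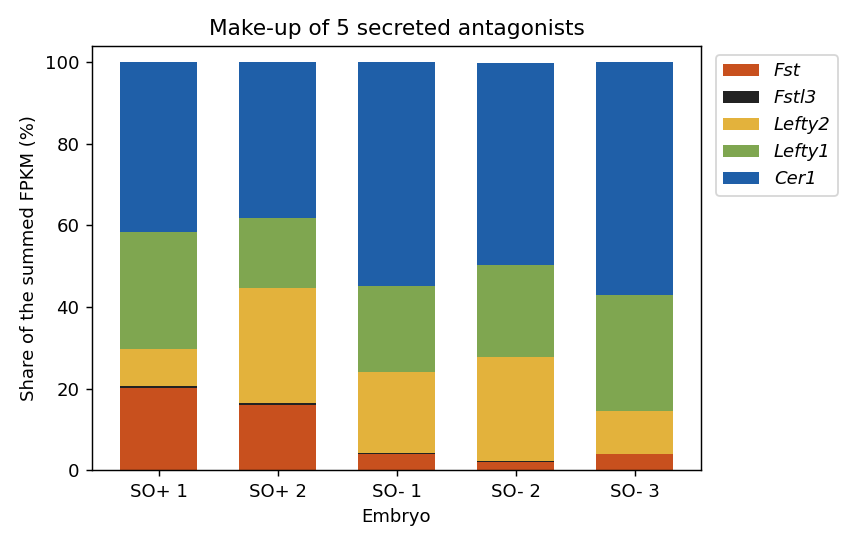
Share of each of 5 secreted antagonists in their summed FPKM, in percent, as a stacked bar for each embryo. Fst filled 16.0% to 20.2% of the bar in the SO+ pair against 1.96% to 4.09% in SO− embryos, and Cer1 filled the largest part of every bar.

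The co-receptor gene Cfc1 was higher in SO− embryos. Cfc1 (ENSMUSG00000026124, chromosome 1, 34535648 to 34544313, plus strand, 1040 exon bases) had 563 and 609 counts in the SO+ pair against 159, 65 and 142 in SO− embryos. This was 20.4 and 22.5 CPM in SO+ against 38.5, 58.2 and 33.9 CPM in SO− embryos, with no overlap and with SO− embryo 2 the highest. The log2 fold change was 0.96 ± 0.23 (SE), or 1.95-fold higher, at an adjusted p just inside the threshold. The fold change stayed at 0.76 to 1.11 when embryos were left out, and the call was lost without SO+ embryo 1, SO− embryo 1 or SO− embryo 2. It was also lost with other scaling factors, without the filter and with thinned SO+ libraries, and kept with DESeq2. Of the Cfc1 exons 289 bases lie opposite Prss40, which had at most 3 counts in an embryo. How reads in these bases were counted is not known. Tdgf1, the epiblast co-receptor gene, was at 471 and 414 CPM in the SO+ pair against 354, 323 and 322 CPM in SO− embryos (log2 fold change -0.40 ± 0.10 SE, adjusted p = 0.0669), which did not pass the threshold. Per length, Tdgf1 stayed the more abundant of the pair, with a mean of 169 and 127 FPKM against 20.7 and 41.8 FPKM for Cfc1 in SO+ and SO− embryos.

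The 250 bases before the start of both co-receptor genes (RefSeq, GRCm38.p6) are shown to compare their promoters. Capitals mark matches to TGTNNATT on either strand, where N is any base. This is a loose FoxH1-type pattern, and FoxH1 is a DNA partner of Smad2.

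Cfc1, chr1:34535398-34535647, plus strand: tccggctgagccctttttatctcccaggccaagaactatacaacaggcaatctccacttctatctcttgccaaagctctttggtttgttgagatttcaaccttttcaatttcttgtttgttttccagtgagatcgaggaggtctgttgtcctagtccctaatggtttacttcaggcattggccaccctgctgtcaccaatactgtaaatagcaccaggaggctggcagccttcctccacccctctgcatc

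Tdgf1, chr9:110946159-110946408, minus strand: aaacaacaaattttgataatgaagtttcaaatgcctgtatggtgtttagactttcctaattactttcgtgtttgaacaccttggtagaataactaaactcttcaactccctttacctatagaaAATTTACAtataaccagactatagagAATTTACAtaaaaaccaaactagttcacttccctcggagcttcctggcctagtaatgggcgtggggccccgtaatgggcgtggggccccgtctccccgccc

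The Tdgf1 promoter held 2 matches, whose first bases lay 127 and 101 bases before the start, and the Cfc1 promoter held none. A match occurs in 10.9% of the 32851 promoters of this length in the table. Of the 10 members, 6 have a promoter there (Fstl1, Fstl3, Inhba, Inhbb, Nodal and Cfc1). None of the 6 held TGTNNATT, the octamer ATGCAAAT bound by Oct factors (1.60% of promoters) or the palindromic Smad site GTCTAGAC (0.167% of promoters), each searched on both strands. The absence of these letters from a short window says nothing about binding elsewhere.

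Inside the cell, SnoN, the product of Skil (ENSMUSG00000027660, chromosome 3, 31095058 to 31122577, plus strand), represses Smad target genes and is itself induced by TGFβ-type signals. Skil had 3094 and 2833 counts in the SO+ pair against 313, 62 and 291 in SO− embryos, or 112 and 105 CPM against 75.7, 55.5 and 69.4 CPM. All SO− embryos were below both SO+ embryos, and SO− embryo 2 was again the lowest. The log2 fold change was -0.66 ± 0.15 (SE), or 1.58-fold lower, and -0.77 to -0.57 with an embryo left out. The call was lost when any embryo but SO+ embryo 2 was left out. Its relative Ski was not called (-0.20 ± 0.24 SE, adjusted p = 0.805), nor was the inhibitory Smad gene Smad7 (-0.52 ± 0.36 SE, adjusted p = 0.609). None of the 11 tested repressors and regulators other than Skil was called by edgeR or DESeq2, over a range of -0.52 to 0.53, and 2 were higher at an unadjusted p under 0.05.

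On the FPKM scale, which allows genes to be compared, the mean levels of the members in SO+ embryos ran from Nodal (26.1) through Lefty2 (22.6), Fst (20.8) and Cfc1 (20.7) to Skil (11.2), Fstl1 (2.15), Gdf3 (1.83), Fstl3 (0.442), Inhbb (0.135) and Inhba (0). Each of the first 4 overlapped with its neighbour in this order, as did Fstl1 with Gdf3, and the range of Lefty2 was wide (9.82 to 35.3 FPKM). Nodal was above Fst and Cfc1 in both SO+ embryos. The Cfc1 values use all 1040 exon bases, of which 289 lie opposite Prss40. How reads there were counted is not known, so its rank among close neighbours is uncertain. In SO− embryos the order was Cfc1 (41.8), Lefty2 (26.5), Nodal (22.7), Skil (6.90), Fst (4.57), Fstl1 (2.25), Gdf3 (0.495), Fstl3 (0.188), Inhba (0.0124) and Inhbb (0). Cfc1 overlapped with Lefty2 there, as did Lefty2 with Nodal and Skil with Fst. At the low end Gdf3 overlapped with Fstl3, Fstl3 with Inhba and Inhba with Inhbb, each gene at 10 counts or fewer per SO− embryo. Fst thus went from the group of the most abundant members in SO+ embryos to a level next to Skil in SO− embryos.

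Of 45 listed genes reported here other than the members, 35 were tested, 1 was called higher (Cer1) and none was called lower by edgeR (2.86% called, against 2.35% of all genes), with a median log2 fold change of 0.11 and a range of -1.12 to 1.05. At an unadjusted p under 0.05, 8 were higher and 1 lower, and DESeq2 called Cer1 higher and Tdgf1 lower. Among 6 tested co-receptor and receptor genes none was called by edgeR, including the type II receptor genes Acvr2a (0.56 ± 0.21 SE, adjusted p = 0.237) and Acvr2b (-0.02 ± 0.21 SE, adjusted p = 0.987) and the type I receptor gene Acvr1b (-0.25 ± 0.24 SE, adjusted p = 0.740). Among 5 Smads and partners none was called by either tool or had an unadjusted p under 0.05, including Smad2 (0.11 ± 0.18 SE, adjusted p = 0.872) and Foxh1 (-0.19 ± 0.13 SE, adjusted p = 0.611). The convertase gene Furin, whose product cleaves the Nodal precursor, was not called (0.44 ± 0.30 SE, adjusted p = 0.591), nor was Pcsk6 (-1.12 ± 0.68 SE, adjusted p = 0.526).

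In the model with genotype alone, none of the 7 target genes reported here was called by edgeR or DESeq2. By edgeR 3 were higher at an unadjusted p under 0.05. The streak genes Eomes (0.05 ± 0.13 SE, adjusted p = 0.938), Mixl1 (-0.44 ± 0.21 SE, adjusted p = 0.375) and T (0.63 ± 0.28 SE, adjusted p = 0.344) were not called there, nor were the endoderm and organiser genes Foxa2 (0.60 ± 0.26 SE, adjusted p = 0.322) and Gsc (0.58 ± 0.29 SE, adjusted p = 0.420). Hhex had the highest fold change of the 7 (0.86 ± 0.38 SE, adjusted p = 0.330). With the replicate block, edgeR called T, Foxa2, Gsc, Lhx1 and Hhex higher, but not Eomes or Mixl1.

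**Figure D3:**
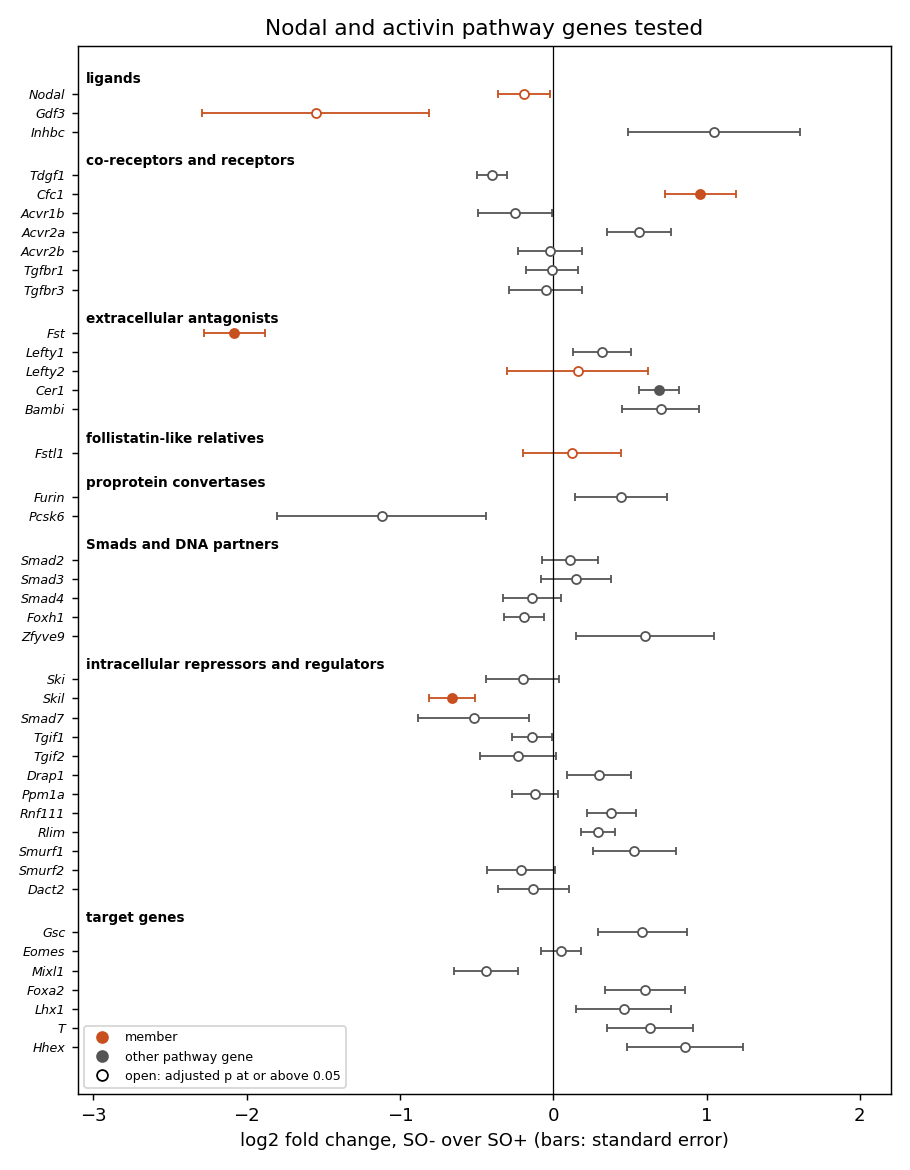
Log2 fold change, SO− over SO+, of the 7 members and 35 other pathway genes tested, with standard errors as bars, filled where the adjusted p was under 0.05. Fst (-2.08) lies farthest from 0, and the open points of receptors and Smads lie between -0.40 and 0.60.

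**Figure D4:**
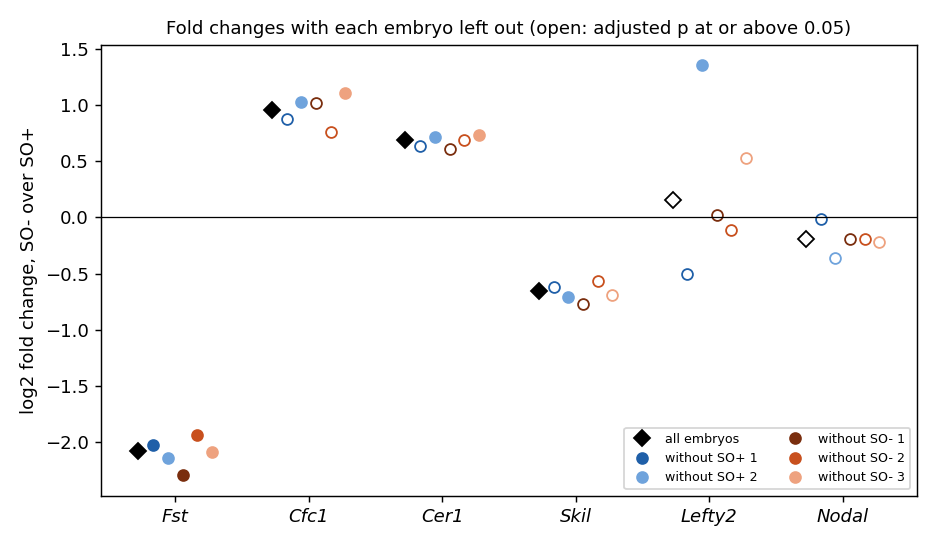
Log2 fold change, SO− over SO+, of 6 genes in all 5 embryos (diamonds) and with each embryo left out (circles), open where the adjusted p was at or above 0.05. Fst stayed filled (-2.30 to -1.94), the values of Cfc1, Cer1 and Skil kept their sign but not their call, and those of Lefty2 ran from -0.50 to 1.36.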

How the data were processed

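RNA-seq counts of 5 embryos (2 SO+, 3 SO−) were used, each embryo being a separate sample. Per the methods of the study, adapters were trimmed with cutadapt, reads were aligned with STAR to GRCm38/mm10 and counted on Ensembl 87 genes with HTSeq. The authors deposited these whole-number counts without normalization. Strand setting and duplicate handling are not given in the sources used here, so reads of overlapping or near-identical genes may be divided in unknown ways, and without molecular identifiers intervals and floors cover counting error only.

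Counts were tested in R 4.3.3 with edgeR 4.0.16 (TMM factors, filterByExpr and the quasi-likelihood test in a model with genotype alone, Benjamini-Hochberg adjustment over 12067 genes, threshold 0.05), after a run on simulated counts. The standard error of a log2 fold change was taken as its size over the square root of the F statistic. CPM used library totals of 1117566 to 27538119. FPKM used merged exon lengths of GENCODE M21 (GRCm38), which matched 99.5% of genes. Members and lists were chosen with earlier results of these data known. Named genes are the members, the listed pathway genes, the 5 genes most like Fst, Pou5f1 and listed markers. One listed pathway gene is not reported here, and the list counts leave it out. Genes overlapping members were named for that overlap. Alternatives were DESeq2 1.42.0, other scaling and filters, thinning (median of 10 draws), a replicate block and each embryo left out.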

Additional observations from a re-analysis of the deposited data

How the results depend on the processing

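Fst and Nodal kept their direction and their side of the threshold in every alternative run. The Fst-to-Nodal ratio, which was not tested, kept its direction in each of its alternatives. Of 149 values under alternatives, 113 kept their direction and, where tested, their side of the threshold or, for counts, stayed near the main count. The number of genes called was 283. It was 929 with the replicate block and 35 (without SO− embryo 2) to 573 (without SO+ embryo 2) with an embryo left out. Members called numbered 3, and 1 (Fst) without SO+ embryo 1, SO− embryo 1 or SO− embryo 2. They numbered 4, with Lefty2, without SO+ embryo 2 and with the block, so that the range with an embryo left out was 1 to 4. Other pathway genes called numbered 1, then 2 with DESeq2, 8 with the replicate block and 0 (without SO− embryo 1 or 2) to 5 (without SO+ embryo 2) with an embryo left out. Reversed values were those of Fstl1 (-0.01 without SO+ embryo 2, -0.07 without SO− embryo 1, range -0.07 to 0.26) and Lefty2 (-0.50 without SO+ embryo 1, -0.11 without SO− embryo 2, range -0.50 to 1.36). With the block, Lefty2 was called at 0.88. Tdgf1 was called at -0.40 with DESeq2, at -0.39 with the block and at -0.49 without SO+ embryo 2. The cause of these shifts was not tested. Same-numbered embryos are different animals, and the labels give them only a number in common. Their deviations correlated at -0.01 and 0.12. These values cannot exclude a shared source, since depth differed between libraries and the deviations of the SO+ pair mirror each other. In the replicate block SO− embryo 3 has no SO+ partner and no weight in the genotype effect. With 1 SO+ embryo left, its spread is taken from the SO− embryos. The ratio of Fst to activin was not run, since Inhba and Inhbb had 0 or 1 count in 4 of 5 embryos. Depth limits Fstl3, Inhba, Inhbb and Gdf3, most of all in SO− embryo 2, where 3 counts are 2.68 CPM.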

Other observations

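The SO+ embryos differed from each other in some streak, organiser and mesoderm genes, which were named after their values were seen. SO+ embryo 2 was above SO+ embryo 1 in Lhx1 (114 and 41.9 CPM), Foxa2 (76.8 and 36.1 CPM), Gsc (35.8 and 16.3 CPM), Mixl1 (281 and 159 CPM) and Mesp1 (63.3 and 20.9 CPM), as it was in Lefty2. T (35.5 and 38.7 CPM) and Snai1 (25.1 and 24.7 CPM) were nearly level. Without SO+ embryo 2, the log2 fold change was 1.36 for Lhx1, 1.25 for Foxa2, 1.26 for Gsc and 0.03 for Mixl1. Without SO+ embryo 1, it was -0.10, 0.15, 0.11 and -0.81 in turn. These genes were named for the gap between the SO+ embryos, so this dependence was set in advance. Each of these fits keeps 1 SO+ embryo. With all 5 embryos, none of the 4 was called in the model with genotype alone, while the replicate block called Lhx1 (6.26e-04), Foxa2 (0.00144) and Gsc (0.0174). In the model with genotype alone, none of the 4 was called with an SO− embryo left out (edgeR quasi-likelihood test). There the adjusted p reached 0.853 for Lhx1, 0.697 for Foxa2, 0.763 for Gsc and 0.641 for Mixl1.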
